A study of Caenorhabditis elegans with 12 samples.

Results

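The 6 libraries described here compare early adults that had spent 8 days in L1 arrest (starved) with early adults that had spent 1 day there (control), all fed afterwards on bacteria labelled daf-2 RNAi. They were selected by their labels and are 6 of the 12 libraries of the series, with 3 in each group under the letters A, B and C. The deposited table lists 12894 genes, and 12830 of them were tested. Whole Caenorhabditis elegans of strain N2 (Bristol), the wild type, were used, so no allele was altered, all tissues were mixed, and fewer cells of a type cannot be told apart from less RNA per cell. Embryos freed by bleaching hatched in S-basal without food, were held there for 1 or 8 days, and live animals were then fed Escherichia coli HT115 that makes double-stranded RNA against daf-2, a route of RNA interference that is not limited to a chosen tissue. Animals were collected when eggs appeared, about 52 hours after 1 day of arrest and about 68 hours after 8 days, so length of arrest and length of recovery cannot be told apart. The other 6 libraries, control EV and starved EV, had the same arrest and were fed HT115 carrying the empty vector (EV). They share no library with the daf-2 RNAi groups and are used to show where the arrest effect differs. They also enter the estimate of spread behind every p-value, and the control EV libraries give the levels by which collagens are grouped.

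Larvae that hatch without food halt in the first larval stage, L1 arrest, and resume development when fed. DAF-2 is the insulin/IGF receptor of the worm. Its signalling holds the FOXO transcription factor DAF-16 out of the nucleus, and when it falls DAF-16 activates stress resistance, detoxification and defence genes. The cuticle, an extracellular matrix of collagens, cuticlins and other proteins made by the epidermis, is replaced at each larval moult, and its genes are switched on in pulses before each moult, many of them at one stage only.

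Reads over the listed genes ranged from 26297982 to 30037731 in the control and from 21150912 to 28231720 in the starved libraries. Levels are CPM, the deposited counts relative to a scaled library size, and are not corrected for gene length. Changes are differences of log2(CPM + 1) between group means, starved minus control, with the SE and the adjusted p of limma, and a gene is called when its Benjamini-Hochberg adjusted p over all 12830 genes is under 0.05. The pseudocount of 1 makes these changes smaller than the ratio of means for genes near or below 1 CPM. The level of daf-2 (Y55D5A.5) was 317, 202 and 118 CPM in control A, B and C and 706, 289 and 111 CPM in starved A, B and C. These ranges overlap, and the difference of 0.53 ± 0.55 was not called (limma, adjusted p = 0.818). The EV libraries had 91.6 to 193 CPM, so daf-2 reads were not fewer in the libraries labelled daf-2 RNAi, and these are named by that label throughout. sod-3, the manganese superoxide dismutase gene known as a DAF-16 target, was at 9.46 to 14.8 CPM in all 6 libraries labelled daf-2 RNAi and at 1.49 to 4.31 CPM in all 6 EV libraries. On the first principal component of the 6 daf-2 RNAi libraries, with 42.4% of their variance, starved B (score 6.1) lay on the side of the controls (8.7 to 22.6), away from starved A (-18.4) and C (-37.3).

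Most of the called genes were higher in the starved libraries. Of the 12830 genes, 85 were called higher (0.663%) and 5 lower (0.039%), 90 in all (0.701%, limma), whereas the median change of all genes was 0.005. Among the 85, 74 differed by at least 2-fold and 18 by at least 4-fold on the log2(CPM + 1) scale, and their median was 1.39. Most were weakly represented: the control mean was under 1 CPM for 52 of the 85, and 20 of the 90 had a mean of at least 10 CPM over the 6 libraries. In all 90 the control and starved groups did not overlap, which over all genes held upward for 9.08% and downward for 5.73%. At an unadjusted p under 0.05 there were 1296 genes (10.1%).

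With the replicate letter as a block 481 genes were called. In the main fit, which leaves the letter out, the count depended on single libraries. Without starved B, which stood with the controls, 195 genes were called, 193 of them higher. It fell to 28 without control B, 42 without control C, 34 without starved A and 41 without starved C. Through the spread that all 12 libraries share in the fit, it was 49 without control EV C, 56 without control EV B and 136 without starved EV A. A set of 28 genes, all higher, was called without each of the 12 libraries in turn, and the other 62 calls were all lost without control B. The 28 are F41F3.3, cut-2, col-165, ZK180.5, tts-2, col-74, cut-3, F56D6.8, abu-14, tts-1, phat-5, dct-8, C02E7.6, cyp-13A5, col-65, spp-9, mtre-1, bus-8B, C02E7.7, spp-12, R02F11.1, mlt-9, F15E6.3, K01D12.9, R12E2.15, R12E2.14, grl-5 and Y37A1B.7, and they are called stable calls below. Stable here covers omitted libraries only and not other processing. Of the 10 alternatives that kept every library, cut-2 was called in 10, mlt-9 in 9 and bus-8B in 8. Of the 90, 34 were kept without starved A, 40 without starved C, 40 without control C, 59 without control A and 84 without starved B. A gene given below with the adjusted p it had at its least favourable omission lost its call there.

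Genes of the cuticle and of the moult were among the rises. Of 213 tested genes in 6 lists (moulting cycle, furrow collagens, cuticle collagens, cuticlins, hedgehog- and patched-related genes, and pharyngeal cuticle genes), 18 were called higher and 2 lower, beside 0.663% and 0.039% of all genes. cut-2 (F53F1.5, chromosome V), a cuticlin gene whose product is a component of the insoluble cuticle residue, had 2.11, 0.322 and 0.848 CPM in control A, B and C and 28.8, 18.1 and 17.7 CPM in starved A, B and C. Every starved library was far above every control. The mean went from 1.09 ± 0.917 to 21.5 ± 6.31 CPM (SD, n = 3), 19.7-fold, and the change was 3.48 ± 0.42 (limma, adjusted p = 0.00201). Its relative cut-3 (F22B5.3, chromosome II) had 0.656, 0.0357 and 0.369 CPM against 8.65, 5.48 and 11.2 CPM, a change of 2.78 ± 0.25 (limma, adjusted p = 0.00028). An exon of cut-3 overlaps evl-20, and reads there cannot be assigned without strand. Of 23 cuticlin genes, 2 were called higher, 12 had all starved libraries above all controls and 1 below (9.08% and 5.73% of all genes), and the median change was 0.47, or 0.21 under quantile normalization and 0.88 by edgeR.

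Among the moulting cycle genes, 5 of 26 were called higher and none lower, beside 0.663% and 0.039% of all genes. Without overlap, 11 lay above the controls and 1 below, against 9.08% and 5.73% of all genes, and the median change was 0.74. The summed level of the 26 was 293 to 381 CPM in the controls and 364 to 520 CPM in the starved libraries, an overlap. mlt-9 (F09B12.1), required for moulting, rose from 0.553, 0.286 and 0.516 CPM in control A, B and C to 4.01, 2.49 and 3.56 CPM in starved A, B and C, a change of 1.57 ± 0.21 (limma, adjusted p = 0.00346), and is a stable call. The patched-related genes ptr-4 and ptr-18, whose products resemble the hedgehog receptor Patched and which worms use in moulting although they lack a canonical hedgehog pathway, rose by 1.68 ± 0.30 and 1.04 ± 0.20 (limma, adjusted p = 0.025 and 0.0385, and 0.139 and 0.205 at worst with a library omitted). wrt-1, a hedgehog-related secreted protein gene, went from 1.45, 0.965 and 0.996 CPM to 3.18, 3.03 and 3.73 CPM, and its change of 1.02 ± 0.19 was called (limma, adjusted p = 0.0335, at worst 0.167). acn-1, which codes for an inactive relative of angiotensin-converting enzyme needed for moulting, rose by 1.12 ± 0.23 (limma, adjusted p = 0.0473, at worst 0.24). The ground-like gene grl-5, another hedgehog-related gene and a stable call, gave 3 reads in the 3 controls together and 106 in the 3 starved libraries. The regulators of the moult showed no call: nhr-23 differed by -0.06 ± 0.18 and nhr-25 by 0.61 ± 0.28 (limma, adjusted p = 0.955 and 0.481). Of the 48 hedgehog- and patched-related genes, 5 were called higher and none lower, and 15 lay above and 1 below. The median was 0.27, or 0.13 under quantile normalization and 0.43 by edgeR. The summed level of the 48 was 1850 to 2120 CPM in the controls and 1810 to 1950 CPM in the starved libraries, an overlap.

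The cuticle collagens moved in both directions, and the direction went with their level in control EV animals. Of 110 tested, 5 were called higher and 2 lower, whereas 36 lay wholly above the controls and 28 wholly below, against 9.08% and 5.73% of all genes. To describe this by level, the collagens were grouped by their mean CPM per kb of exon in the control EV libraries. Those libraries enter the fit through the shared spread and not the change itself. The limits of 10 and 100 were chosen after the values were seen. Of 70 collagens under 10 CPM per kb, 30 lay above the controls and 1 below, and their median change was 0.71. Of 26 at or above 100 CPM per kb, 1 lay above and 23 below, and the median was -0.78. The 14 between had 5 above and 4 below and a median of 0.13. Since the second group carries nearly all collagen reads, the summed level of the 110 genes was 23990, 34080 and 31020 CPM in control A, B and C and 20610, 17610 and 15470 CPM in starved A, B and C, lower in every starved library while the median change was 0.47, or 0.29 under quantile normalization and 0.80 by edgeR. Leaving out starved B, the counts were 35 above and 1 below in the first group and 1 above and 23 below in the second, against 19.5% and 14.7% of all genes. Collagen genes with nearly the same sequence may share reads.

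**Figure D1:**
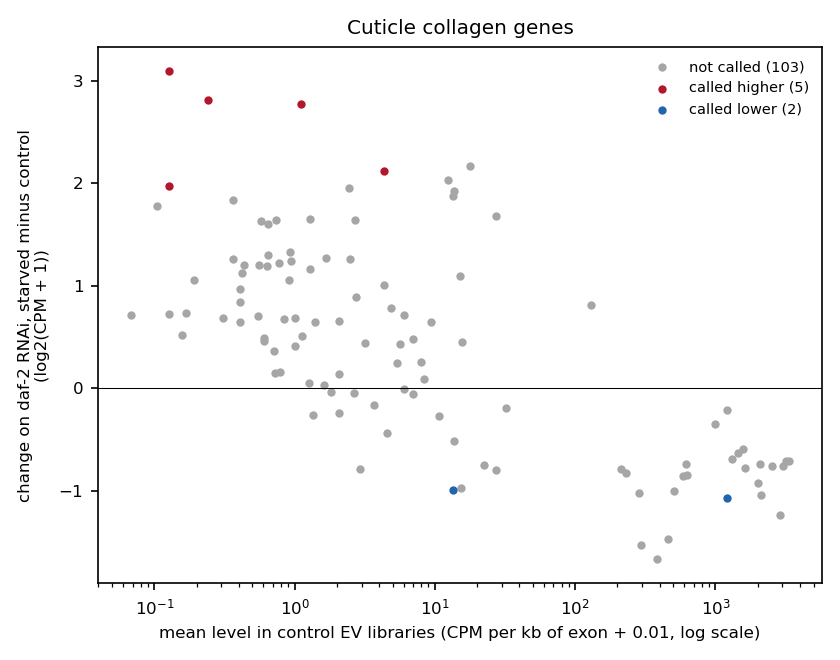
Each point is one of 110 cuticle collagen genes, with its mean level in the control EV libraries (CPM per kb of exon plus 0.01, log scale) on the x axis and its change on daf-2 RNAi (starved minus control, log2(CPM + 1)) on the y axis. Red points are the 5 called higher, blue the 2 called lower and grey the 103 not called, and the 26 collagens at or above 100 CPM per kb lie below 0 except 1.

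In the weakly expressed group, col-165 (F14H12.1, chromosome X) had 0.622, 0.0715 and 0.479 CPM in control A, B and C and 11, 9.04 and 12.2 CPM in starved A, B and C, 27.6-fold by means and a change of 3.09 ± 0.21 (limma, adjusted p = 2.8e-05). The 3 starved libraries were close to each other and far from the controls, and omitting any single library left the adjusted p at 0.000384 or below. col-74 (2.82 ± 0.23) and col-65 (1.98 ± 0.23) are stable calls too (limma, adjusted p = 9.62e-05 and 0.00144), although an exon of col-74 overlaps gtap-1. col-107 and col-3 rose by 2.78 ± 0.53 and 2.12 ± 0.44 (limma, adjusted p = 0.0358 and 0.0496), with starved A at 23.6 and 29.9 CPM above the other starved libraries, and lost the call without any of 9 libraries (at worst 0.151 and 0.214). In the strongly expressed group, col-179 (C34F6.3, chromosome X) had 671, 1052 and 977 CPM in the controls and 512, 444 and 327 CPM in starved A, B and C. It fell by 1.07 ± 0.22 on the log2 scale (limma, adjusted p = 0.046, at worst 0.242), and an exon overlaps C34F6.11. col-135, of the middle group, fell from 20.8 ± 2.40 to 9.90 ± 0.614 CPM (SD, n = 3; limma, adjusted p = 0.0371, at worst 0.205). col-19, the collagen gene known as a marker of the adult cuticle, had 1038, 1970 and 1690 CPM in the controls and 742, 817 and 655 CPM in the starved libraries. Its groups did not overlap, and the difference of -1.04 ± 0.23 was not called (limma, adjusted p = 0.066). The 6 furrow collagens, among them dpy-7, which pattern the annular furrows of the cuticle, had a median of 1.02 with none called. Without overlap 4 of them lay above the controls, against 9.08% of all genes.

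**Figure D2:**
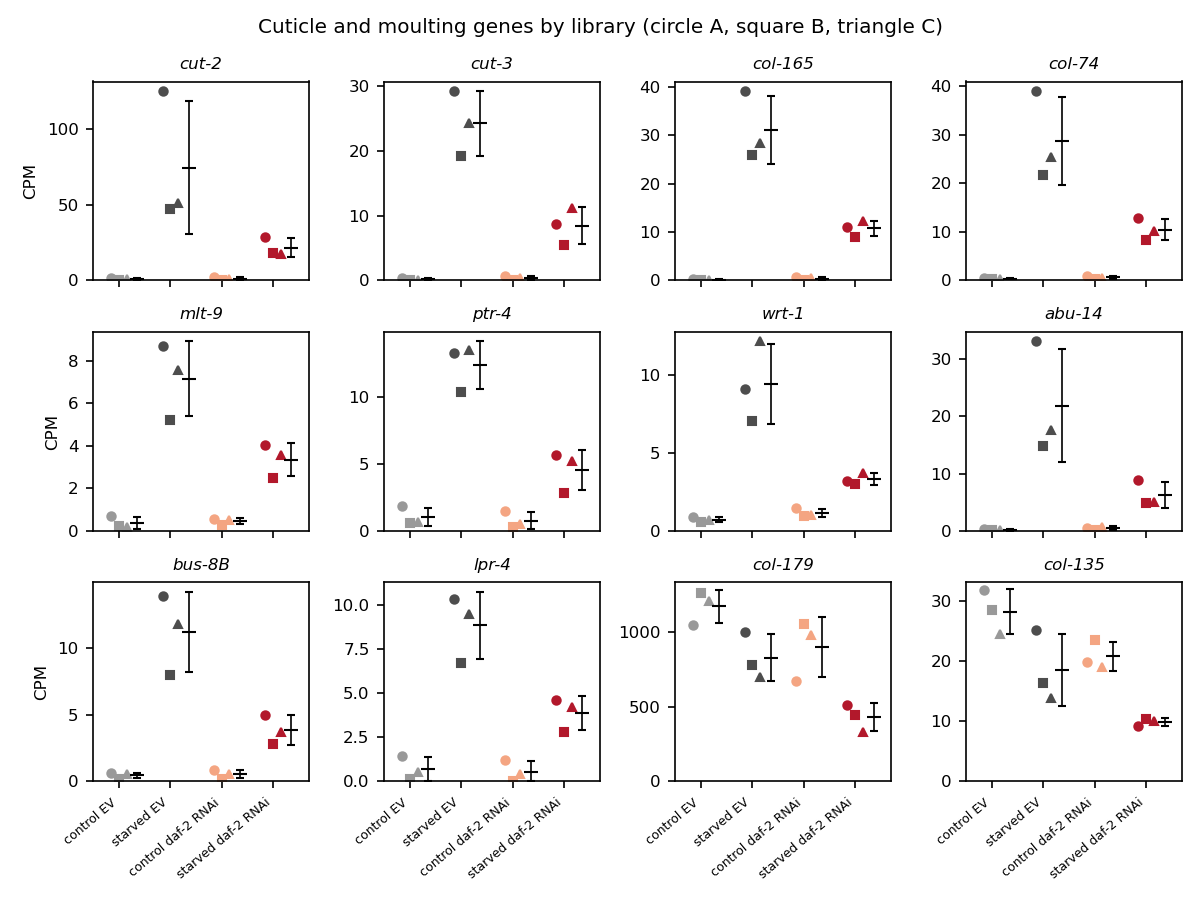
CPM of 12 cuticle and moulting genes in the 12 libraries, by group on the x axis and with a separate linear scale from 0 for each gene on the y axis. Circles, squares and triangles are letters A, B and C, and the bar beside them is the mean with its SD (n = 3), cut at 0; for cut-2 the starved daf-2 RNAi libraries (17.7 to 28.8 CPM) lie between the controls and the starved EV libraries (47.1 to 125 CPM).

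Some genes of the cuticle lining the pharynx, the feeding organ, rose as well. Of 15 abu, pqn and phat genes tested, 4 were called higher and none lower, 8 lay above the controls and none below, and the median was 0.69, or 0.45 under quantile normalization and 1.62 by edgeR. The shares over all genes were 0.663% called higher and 9.08% above. The summed level of the 15 genes was 139.6 to 165.6 CPM in the controls and 165.5 to 182.2 CPM in the starved libraries, an overlap. abu-14 went from 0.587, 0.107 and 0.701 CPM to 8.93, 4.85 and 5.04 CPM, a change of 2.29 ± 0.29 (limma, adjusted p = 0.00286), and is a stable call. phat-5 gave 4 reads in the 3 controls together and 300 in the starved libraries (limma, adjusted p = 0.00048), also stable. abu-13 and phat-2 rose by 1.14 ± 0.22 and 0.74 ± 0.14 (limma, adjusted p = 0.0358 and 0.0385, at worst 0.174 and 0.163).

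Other called genes are known for parts in the same matrix and were picked out here after their values were seen. bus-8B, from the locus of a glycosyltransferase needed for cuticle integrity, rose from 0.532 ± 0.308 to 3.84 ± 1.12 CPM (SD, n = 3) and is stable, although its exons overlap those of bus-8A. glf-1, the UDP-galactopyranose mutase gene of surface glycan synthesis, rose by 1.61 ± 0.24 (limma, adjusted p = 0.0065, and 0.0517 without control B, the only omission that ended the call). The neighbouring lipocalin-related genes lpr-5 and lpr-4 on chromosome X rose by 1.62 ± 0.33 and 1.72 ± 0.32 (limma, adjusted p = 0.0493 and 0.0338, at worst 0.242 and 0.168). agmo-1, an alkylglycerol monooxygenase gene whose loss weakens the cuticle, rose 5.76-fold (limma, adjusted p = 0.0122, and at worst 0.0603, without control B or starved A). The largest change of all, in F41F3.3 on chromosome V, went from 1.80, 0.679 and 1.14 CPM to 30.5, 22.6 and 25.2 CPM, 21.7-fold (3.64 ± 0.27, limma, adjusted p = 5.61e-05), and is stable. It and 34 other called genes carry only a sequence name, and 57 of the 90 are in none of the 48 lists.

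Marker genes of several tissues are given beside the cuticle genes, and their part in that result was not tested. All 22 neuron genes differed upward, with a median of 0.36, none called and 7 above the controls without overlap, and their summed level was 400 to 436 CPM in the controls and 460 to 587 CPM in the starved libraries. All 9 pharyngeal muscle genes differed upward (median 0.78, or 1.51 by edgeR, none called, 4 above without overlap), with sums of 49.6 to 100 CPM in the controls and 76.3, 106 and 388 CPM in starved B, C and A. Early embryo genes summed to 311 to 370 CPM in the controls and 327 to 374 CPM in the starved libraries, and 1 of 27 was called higher (sdz-24). Body wall muscle, intestine, oocyte, P granule and meiosis genes had no call, with medians of -0.17, -0.007, -0.01, -0.09 and -0.16. Differing upward were 7 of 22 body wall muscle, 8 of 17 intestine and 10 of 24 oocyte genes. Among P granule and meiosis genes 2 of 18 and 1 of 27 did, with 3 and 6 below the controls without overlap. Over all genes 9.08% lay above and 5.73% below without overlap. No member of any of these lists was at 0 in all 6 libraries.

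The long non-coding RNA tts-1, known for its abundance on ribosomes of long-lived daf-2 mutants, was 1 of 2 non-coding RNAs among the called genes, with tts-2. It had 47.3, 34.3 and 58.1 CPM in control A, B and C and 169, 186 and 366 CPM in starved A, B and C. Starved C was highest, and all starved libraries were far above all controls. The mean rose 5.17-fold (2.29 ± 0.28, limma, adjusted p = 0.00201, a stable call). On EV tts-1 went from 10 to 14.7 CPM in the controls to 32.5 to 49.1 CPM in the starved libraries, a change of 1.67, and the difference between the effects was 0.61 with a 95% interval from -0.25 to 1.48. tts-2 rose from 1.51 ± 0.786 to 19.6 ± 6.37 CPM (SD, n = 3; 3.03 ± 0.33, limma, adjusted p = 0.00099), also stable.

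Of 16 tested genes known to be activated by DAF-16, 2 were called higher (tts-1 and dod-3) and none lower. Of the 16, 8 lay above the controls without overlap and none below, and 15 differed upward, with a median of 0.54. Over all genes the shares were 0.663% called higher, 9.08% above and 5.73% below. On EV 7 of the 16 were called higher, beside 11.5% of all genes, and the median was 0.72, so the rise is not particular to daf-2 RNAi. dod-3 had 11.1, 7.22 and 13.2 CPM in the controls and 31.1, 31.2 and 38.2 CPM in starved A, B and C, 3.18-fold (1.61 ± 0.26, limma, adjusted p = 0.0128). The call was lost without control B, starved A or starved C (at worst 0.0794). Members of the list that did not pass the test included mtl-1, a metallothionein gene, with 2.45, 1.39 and 8.59 CPM against 10.5, 8.96 and 37.4 CPM (1.93 ± 0.51, adjusted p = 0.134), ftn-1, a ferritin gene (1.22 ± 0.28, adjusted p = 0.0833), and hil-1, a linker histone gene (0.85 ± 0.18, adjusted p = 0.0546, all limma). Their groups did not overlap. sod-3 had 9.46, 11.1 and 12.5 CPM in the controls and 11.5, 9.87 and 14.8 CPM in the starved libraries, an overlap (0.11 ± 0.20, limma, adjusted p = 0.917). daf-16 itself and 21 other genes of the insulin receptor pathway had no call, and daf-16 differed by 0.12 ± 0.16 (limma, adjusted p = 0.876).

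Some defence genes and 2 detoxification genes were called higher, most of them from low levels. Of 120 immune effector genes, 5 were called higher and none lower, beside 0.663% of all genes called higher, and the median was 0.14, or 0.05 under quantile normalization. spp-9, a saposin-like protein gene, had 0.0345, 0.429 and 0.295 CPM in the controls and 2.52, 6.35 and 2.47 CPM in starved A, B and C, with starved B highest (1.85 ± 0.25, limma, adjusted p = 0.00346). spp-12 of the same family had 0.207, 0.322 and 0.184 CPM against 2.28, 4.07 and 2.17 CPM (1.60 ± 0.18, limma, adjusted p = 0.00099), and both are stable. The caenacin gene cnc-4 and the antimicrobial peptide gene nlp-29, both known from the epidermal response to infection, rose 3.73-fold and 2.64-fold by means (limma, adjusted p = 0.0338 for each, at worst 0.169 and 0.163). lys-3, a lysozyme gene, and clec-210, a C-type lectin gene, rose by 1.27 ± 0.25 and 1.23 ± 0.23 (limma, adjusted p = 0.0455 and 0.0309, at worst 0.188 and 0.14). Of 138 cytochrome P450, UGT and glutathione transferase genes, 2 were called higher and none lower, a share near that of all genes. The median of these 138 was 0.075, or -0.07 under quantile normalization. cyp-13A5 had 5.01, 3.18 and 6.64 CPM in the controls and 21.8, 20.9 and 25.7 CPM in the starved libraries, 4.61-fold (2.04 ± 0.24, limma, adjusted p = 0.00201, stable), and cyp-13A11 rose by 1.31 ± 0.20 (limma, adjusted p = 0.00722, and 0.0531 without control B). dct-8 (10.8-fold by means, limma, adjusted p = 0.0032) and its neighbours F56D6.8 and F56D6.9 on chromosome IV rose together, and in each of them starved C was the highest library.

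**Figure D3:**
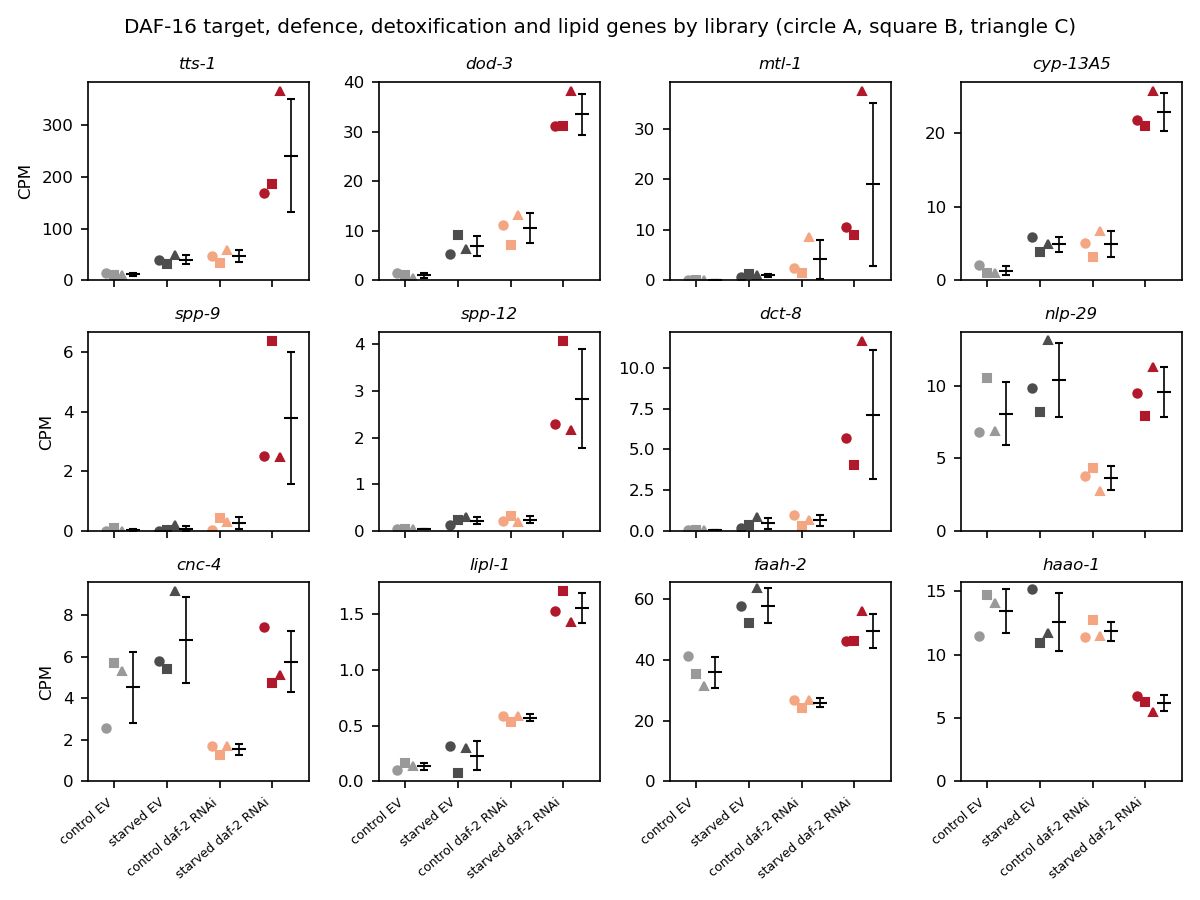
CPM of 12 genes (DAF-16 targets, defence, detoxification and lipid genes, and haao-1) in the 12 libraries, by group on the x axis and with a separate linear scale from 0 for each gene on the y axis. Symbols are the letters A, B and C and the bar is the mean with its SD (n = 3), cut at 0; for tts-1, dod-3, cyp-13A5, spp-9, spp-12, dct-8 and lipl-1 every starved daf-2 RNAi library lies above the other 9 libraries, and mtl-1 was not called.

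Lipid and metabolic genes showed few calls. faah-2, of the fatty acid amide hydrolase family, had 26.8, 24.1 and 26.9 CPM in the controls and 46.4, 46.3 and 56.1 CPM in the starved libraries, 1.91-fold (0.91 ± 0.14, limma, adjusted p = 0.00751, and 0.0641 without control B). lipl-1, a lysosomal lipase gene known to be induced by fasting, rose from 0.571 ± 0.0303 to 1.55 ± 0.137 CPM (SD, n = 3; limma, adjusted p = 0.0342, at worst 0.171), and was the only call among 22 lipase and lipid droplet genes. None of 22 fatty acid synthesis genes was called or had groups without overlap: fasn-1, the fatty acid synthase, differed by 0.04 ± 0.18 and pod-2, acetyl-CoA carboxylase, by -0.09 ± 0.39 (limma, adjusted p = 0.971 for each). The vitellogenins, the yolk proteins, had no call either, with vit-2 at 0.08 ± 0.52 and vit-6 at 0.07 ± 0.55 (limma, adjusted p = 0.981 and 0.985). These SE leave room for changes near 2-fold in the vitellogenins.

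The other falls were single genes. haao-1, which codes for 3-hydroxyanthranilate dioxygenase of the kynurenine pathway, fell from 11.4, 12.7 and 11.4 CPM to 6.71, 6.26 and 5.47 CPM, with each group tight (-0.85 ± 0.16, limma, adjusted p = 0.0338, at worst 0.171). fbxa-72, an F-box gene, fell from 18.6, 27.6 and 25.7 CPM to 14.4, 11.9 and 9.16 CPM (-0.96 ± 0.20, limma, adjusted p = 0.049, at worst 0.243). Y47G6A.19 fell by 0.82 on the log2 scale (limma, adjusted p = 0.0496, at worst 0.252), and an exon overlaps pcaf-1. None of the 5 falls was stable.

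Among the large lists with no call, 5 of 80 ribosomal protein genes differed upward, 8 lay below the controls without overlap and none above, and the median was -0.10, or -0.001 under quantile normalization. Translation factors and tRNA synthetases had 17 of 71 below and 1 above (median -0.14), proteasome genes 6 of 33 below (median -0.13), and meiosis genes 6 of 27 below with 1 differing upward (median -0.16). Under quantile normalization these medians were -0.07, -0.06 and -0.09. The background over all genes is 9.08% for groups lying above and 5.73% for groups lying below. Nuclear hormone receptor genes had 26 above and 2 below, with a median of 0.11 that became -0.04 under quantile normalization. The major sperm protein genes all differed upward, with a median of 0.32 (0.10 under quantile normalization and 0.69 by edgeR) and none called, and their sums overlapped, at 15 to 39.4 CPM in the controls and 31.8, 14.6 and 84.2 CPM in starved A, B and C.

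**Figure D4:**
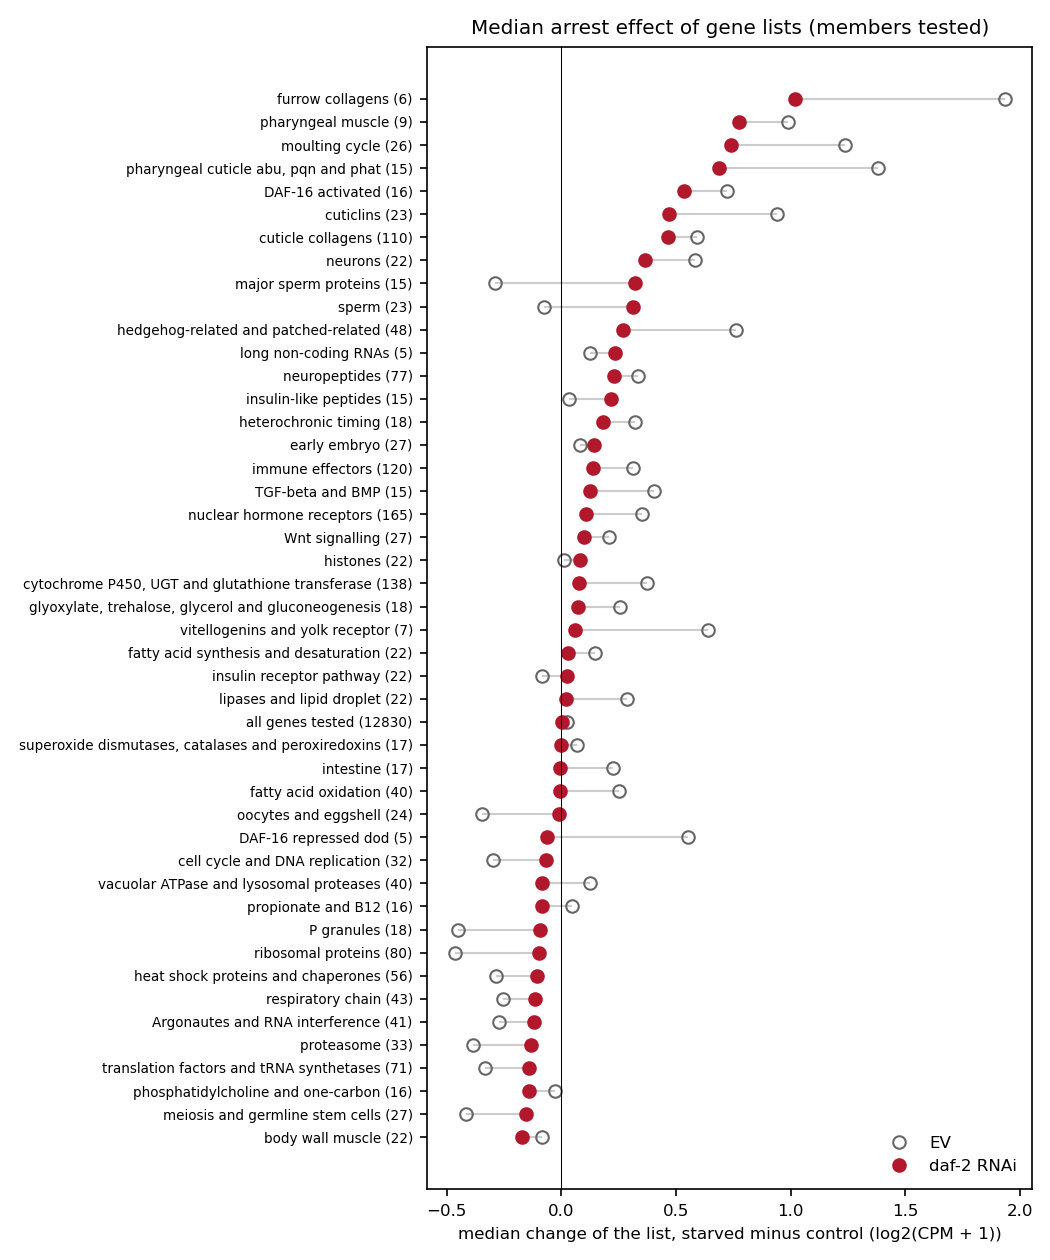
Median change (starved minus control, log2(CPM + 1), x axis) of the gene lists with at least 5 tested members (y axis, number of members tested in brackets), for daf-2 RNAi (red) and EV (open circles). Furrow collagens (1.02), pharyngeal muscle (0.78), moulting cycle (0.74) and pharyngeal cuticle genes (0.69) have the highest medians on daf-2 RNAi in this fit, and all genes tested lie at 0.005.

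The arrest effect on daf-2 RNAi was set beside that on EV, since the study asks whether lower insulin signalling during recovery alters what arrest leaves in the adult. On EV 1481 genes were called higher (11.5%) and 785 lower (6.12%), and 4812 (37.5%) had an unadjusted p under 0.05. Of the 85 genes called higher on daf-2 RNAi, 70 were called higher on EV as well, 82.4% of the former and 4.73% of the latter list, and none was called lower there. All 85 differed upward on EV, 57 of them by more than on daf-2 RNAi, and their median was 1.89 on EV and 1.39 on daf-2 RNAi. For the genes called higher on EV, which that contrast selected, the median was 0.88 there and 0.41 on daf-2 RNAi, and 1401 of the 1481 differed upward on daf-2 RNAi. The median of the 785 called lower on EV was -0.48 there and -0.20 on daf-2 RNAi. Across all 12830 genes the changes had a Pearson r of 0.73 and a Spearman rho of 0.66, a description only, since genes are not independent and same-lettered libraries of the 2 bacteria deviated together. In the main fit, which leaves the replicate letter out, the difference between the effects was called for no gene (limma, smallest adjusted p = 0.297). There 912 genes (7.11%) had an unadjusted p under 0.05. By edgeR it was called for none either, by DESeq2 for 4, and with the replicate letter as a block for 63. Same-lettered libraries of the 2 bacteria correlated in their deviations from the group means at 0.541 to 0.821. Same-lettered control and starved libraries also did for A and C (0.487 and 0.579 on daf-2 RNAi, 0.645 and 0.659 on EV). For B these values were -0.095 on daf-2 RNAi and 0.085 on EV.

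**Figure D5:**
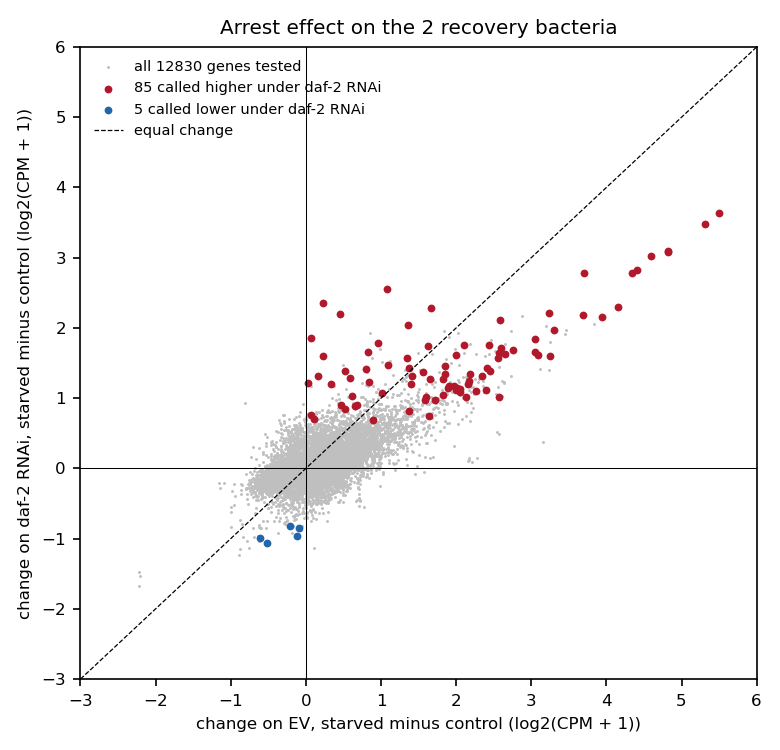
Change on EV (x axis) against change on daf-2 RNAi (y axis), both starved minus control in log2(CPM + 1), for 12830 genes (grey), with the 85 called higher on daf-2 RNAi in red, the 5 called lower in blue and a dashed line of equal change. Of the 85, 57 lie below the line and 28 above it.

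Called genes fell on both sides of the line of equal change, 57 of the 85 below it and 28 above it. The patterns that follow compare levels and do not sort genes by their side of that line. For 45 of the 85, every starved EV library exceeded all 9 other libraries, a pattern that 11.9% of all genes showed, and these include cut-2, cut-3, col-165, col-74, mlt-9, ptr-4, wrt-1, abu-14, phat-5, bus-8B and glf-1. In cut-2 the change was 5.31 on EV and 3.48 on daf-2 RNAi, and in wrt-1 2.57 and 1.02. For another 21 every starved daf-2 RNAi library exceeded all 9 others, against 0.943% of all genes, and the rise under daf-2 RNAi that put them in the list helped to set this count. A gene with this pattern can have the larger change on EV. Among the 21, dod-3 changed by 1.995 on EV and 1.613 on daf-2 RNAi, and sdz-24 by 1.602 and 1.02. In both, the control daf-2 RNAi libraries already lay above the control EV libraries without overlap. The 21 include tts-1, dod-3, cyp-13A5, cyp-13A11, spp-9, spp-12, dct-8, lipl-1, abhd-5.1, fipr-22 and sdz-24, and 13 of the 21 are among the 15 genes called higher on daf-2 RNAi and not on EV.

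Those 15 are F56D6.9, F56D6.8, dct-8, spp-9, Y6E2A.4, spp-12, cnc-4, cyp-13A11, F15B9.6, fipr-22, nlp-29, abhd-5.1, Y38F1A.8, C45E5.3 and lipl-1. That a gene was called under daf-2 RNAi and not on EV does not show that the effects differ. In the main fit the difference was called in none of the 15 (limma, adjusted p from 0.297 to 0.722). The unadjusted 95% interval lay above 0 in 11. Choosing genes called on daf-2 RNAi and not on EV itself favours a positive difference. This count and the intervals that follow are therefore a description and not a test. In spp-9 the starved EV libraries had 0, 0.0392 and 0.186 CPM, against 2.47 to 6.35 CPM on daf-2 RNAi, and the difference of effects was 1.79 with an interval from 1.02 to 2.56. In spp-12 the difference was 1.38, from 0.84 to 1.92, and in F56D6.8 2.13, from 1.15 to 3.11. In 9 of the 15 the control daf-2 RNAi libraries already lay above the control EV libraries without overlap, as in 7% of all genes. The reverse held for 2 of the 15, cnc-4 and nlp-29, and for 9.12% of all genes: their control daf-2 RNAi libraries (1.25 to 1.70 and 2.73 to 4.36 CPM) lay below the control EV libraries (2.58 to 5.71 and 6.79 to 10.6 CPM), and the starved daf-2 RNAi libraries (4.73 to 7.44 and 7.88 to 11.3 CPM) overlapped the starved EV libraries. pud-3, a gene known to be raised in daf-2 mutants, had 45.2, 51.8 and 102 CPM in control daf-2 RNAi and 76.4, 36.6 and 186 CPM in starved daf-2 RNAi libraries, an overlap (0.37 ± 0.57), and 2.90 to 7.04 CPM in control EV against 29.8 to 109 CPM in starved EV libraries (3.16). The difference of these effects was -2.79 and was not called.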

How the data were processed

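The authors deposited one signal value per gene and library, normalised counts (CPM) whose library sizes were scaled, with column sums of 889133 to 1097908. Bowtie 1.1.2, HTSeq 0.12.4 and edgeR are named in the submitters' processing notes without their roles, and the genome build is not given in the sources used here. Since the library kit keeps no strand, overlapping genes (19 of the 90 called) share reads. Every value was a whole multiple of 1 read within 0.01 read, which gave the depths and the reads for edgeR 4.0.16 and DESeq2 1.42.0 as alternatives. Ensembl WBcel235 names matched 12731 genes, and 163 did not match.

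A gene needed 1 CPM or more in 3 or more libraries to be tested (64 removed). Testing was by limma 3.58.1 (R 4.3.3) with a trend on log2(CPM + 1), in 1 fit of 4 groups over 12 libraries, two-sided. The labels do not say whether the letters are separate cultures, so p-values measure the spread between these libraries, which may be technical. An exact permutation test of 3 against 3 cannot go below p = 0.1. What a letter shares is not stated in the labels either, and the main fit left it out. Deviations of same-lettered control and starved libraries correlated at 0.487 (A), -0.095 (B) and 0.579 (C). On EV they did at 0.645, 0.085 and 0.659, and between the 2 bacteria at 0.541 to 0.821. Variation shared by letter was thus present, and the main fit does not remove it. Blocking by letter raised the calls from 90 to 481, and those for the difference of effects from 0 to 63. The comparison and the gene lists were chosen with earlier results of these data known. The naming rule took the largest called changes with a mean of at least 10 CPM, up to 4 called members of each list (or the 2 largest changes) and 12 fixed genes, 117 in all. The other 58 called genes fall outside it, and those named were chosen after their values were seen. The fit was also run on simulated counts with independent libraries and changes only in better expressed genes. That run cannot speak for weakly expressed genes or for libraries that deviate together by letter.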

Additional observations from a re-analysis of the deposited data

How the results depend on the processing

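No call of the 90 changed sign under any alternative, and 14 were called under all 10 that kept every library. With a pseudocount of 5, 29 genes were called, 29 higher and 0 lower, and 1 for the difference of effects. With a mean of at least 5 CPM it was 16, 16 higher and 0 lower, and 1335 on EV. Quantile normalization gave 54, 49 higher, and 1484 on EV. Array weights gave 285, 237 higher and 48 lower, and 3635 on EV. DESeq2 gave 372, 318 higher and 54 lower, and 4 for the difference. edgeR called 9 lower. The 6 daf-2 RNAi libraries alone gave 45, 44 higher and 1 lower. The share of calls that were higher was 94.4% in the main fit, 83.2% with array weights and 85.5% by DESeq2. With the replicate block 481 were called, 395 higher (82.1%) and 86 lower, all 90 among them, 63 for the difference and 6371 on EV. Same-lettered libraries of the 2 bacteria deviated together for every letter. Same-lettered control and starved libraries did so for A and C and not for B. Leaving out 1 library at a time gave 28 to 195 calls, 28 to 193 higher and 0 to 20 lower (20 without control daf-2 RNAi A), 0 to 1 for the difference (1 without starved EV C) and 728 to 2623 on EV (728, 897, 879 and 802 without control EV C, control EV B, starved EV A and starved EV C). The cause was not tested in any of these.

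Under quantile normalization the medians of early embryo genes (-0.09), insulin-like peptides (-0.08), cytochrome P450, UGT and glutathione transferase genes (-0.07), nuclear hormone receptors (-0.04) and long non-coding RNAs (-0.02) turned negative, and those of oocyte (0.08), cell cycle (0.008) and fatty acid oxidation genes (0.003) positive. By DESeq2 the insulin receptor pathway (-0.005) and fatty acid synthesis (-0.008) turned negative, and by edgeR the superoxide dismutase list (0.004) positive. Depth limits the genes with few control reads: 11 of the 85 had under 10 reads in the 3 controls together, and their fitted changes depend on the pseudocount.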

Other observations

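Some called genes were neighbours. How often tested genes in general lie this close was not counted, so no clustering is claimed. Within 10000 bases of each other on the WBcel235 assembly were R12E2.15, R12E2.14 and R12E2.7 on chromosome I, F56D6.9, F56D6.8 and dct-8 on chromosome IV, dct-7 and F15E6.3 on chromosome IV, C02E7.7 and C02E7.6 on chromosome V, and lpr-5 and lpr-4 on chromosome X. In R12E2.14 the 3 control libraries gave 2 reads together and the 3 starved libraries 109. Of the 85 genes called higher, 29 were on chromosome V (1.23% of the genes tested there) and 5 on chromosome III (0.24%). The shares on chromosomes I, II, IV and X were 0.333%, 0.77%, 0.713% and 0.665%, beside 0.663% over all genes tested. The spread over chromosomes was not tested. The ribosomal RNA gene rrn-3.1, whose level depends on how RNA was selected, had 5145, 4835 and 6827 CPM in control A, B and C and 9383, 7059 and 9950 CPM in starved A, B and C, groups that did not overlap (0.65 ± 0.41, limma, adjusted p = 0.641). Its part in the results was not tested.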
